A study of Homo sapiens with 12 samples.

Results

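Nucleotide excision repair (NER) genes were followed through a hypoxia time course in HCT116, an established human colorectal cancer cell line. The set comprised 10 genes, ERCC1, ERCC2, ERCC3, ERCC4, ERCC5, ERCC6, ERCC8, XPA, XPC and GTF2H2, chosen by gene name, out of 56537 gene names in the transcript table, of which 16680 passed the filter on low values and were tested. All 10 passed it. They carried 164 transcript models that matched a reference transcript (class =) or shared at least 1 splice site with one (class j), and 67 of these passed the filter of FPKM above 0.5 in at least 3 libraries.

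The 0 h group was grown at 21% oxygen and the others spent 1, 2 or 24 h in 1% oxygen, with 3 biological replicates at each of the 4 time points and 12 strand-specific poly(A) RNA libraries in total. All groups were the same unmodified line in the same medium, and no other agent was applied. Hypoxia began 24 h after plating. When the 0 h cells were harvested relative to plating is not given in the sources used here, so at 24 h the length of culture and low oxygen cannot be told apart. The level of a gene is the sum of the FPKM (fragments scaled to transcript length and to the mapped fragments of the library) of its transcripts. Read counts were not used here, so the depth behind each value is unknown, and precision is read from the spread of the 3 replicates. Fewer cells of a kind and less RNA per cell cannot be told apart in such bulk samples. The labels were checked on 8 genes known to respond to low oxygen, all of which were higher at 24 h, with a median log2 fold change of 3.39. Of the epithelial markers EPCAM, KRT8, KRT18, KRT19, CDH1 and CDX2 were expressed, while VIL1 did not exceed 0.0480 FPKM in any library. PTPRC, CD3E, PECAM1, CDH5, COL3A1 and DCN, markers of leukocytes, endothelium and fibroblasts, did not exceed 0.0763 FPKM. CD68 and COL1A1 were low at 0 h (2.01 and 1.92 FPKM) and rose at 24 h (10.2 and 6.87 FPKM). Their part in the changes given here was not tested.

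NER removes bulky lesions such as those left by ultraviolet light. XPC finds distorted DNA throughout the genome, whereas ERCC6 (CSB) and ERCC8 (CSA) act where RNA polymerase has stalled on a transcribed strand. The routes join at TFIIH, whose helicases ERCC3 (XPB) and ERCC2 (XPD) open the DNA and whose core also contains GTF2H2 (p44), a partner of ERCC2. XPA then verifies the damage, and the damaged strand is cut on the 5′ side by the ERCC1 and ERCC4 (XPF) nuclease and on the 3′ side by ERCC5 (XPG).

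4 stretches of sequence stand behind the results on single transcripts. The coordinates are those of GRCh37, the build of the files, with GENCODE models. The first is the coding end of ERCC1-201, the transcript that carried most of the ERCC1 signal (chr19:45916809-45916964, minus strand). ERCC1-201 has 323 codons on 8 exons and ERCC1-202 has 297 on 10. Capitals mark the 126 bases that code in ERCC1-201 and are intronic in ERCC1-202, whose splice donor begins with the first capital.
ERCC1-201: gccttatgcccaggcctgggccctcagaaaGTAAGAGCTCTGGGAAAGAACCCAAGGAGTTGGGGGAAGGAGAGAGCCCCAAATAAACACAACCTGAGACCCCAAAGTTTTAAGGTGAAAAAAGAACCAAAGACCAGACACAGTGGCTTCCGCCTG
The second lies in the first exon of ERCC2-202, annotated as a retained-intron transcript (chr19:45864851-45865000, minus strand). This exon of 408 bases begins 289 bases inside an intron of the coding transcript ERCC2-204 and runs into the whole of exon 12 of its 23 exons. Capitals are the intron and lower case is the exon.
ERCC2-202: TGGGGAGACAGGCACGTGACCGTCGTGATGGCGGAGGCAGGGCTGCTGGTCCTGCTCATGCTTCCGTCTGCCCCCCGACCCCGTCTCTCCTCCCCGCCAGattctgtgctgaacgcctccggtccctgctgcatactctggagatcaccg
The third is the intron of 218 bases, in capitals, that GTF2H2-211 keeps and the coding transcript GTF2H2-202 removes, with 20 exon bases on each side (chr5:70344657-70344914, minus strand).
GTF2H2-211: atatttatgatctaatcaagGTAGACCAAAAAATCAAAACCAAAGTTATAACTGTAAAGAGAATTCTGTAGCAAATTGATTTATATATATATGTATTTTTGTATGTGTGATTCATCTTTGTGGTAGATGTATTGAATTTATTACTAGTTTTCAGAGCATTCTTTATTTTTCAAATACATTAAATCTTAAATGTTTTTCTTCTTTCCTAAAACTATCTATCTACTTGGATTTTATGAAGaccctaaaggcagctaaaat
The last sets GTF2H2 beside its copy GTF2H2C over coding positions 354 to 453, counted from 1 at the start codon, because reads of these genes are hard to assign. Capitals mark the 2 bases that differ in this stretch.
GTF2H2-202: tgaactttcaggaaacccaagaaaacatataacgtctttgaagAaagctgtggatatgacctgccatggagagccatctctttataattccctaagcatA
GTF2H2C-201: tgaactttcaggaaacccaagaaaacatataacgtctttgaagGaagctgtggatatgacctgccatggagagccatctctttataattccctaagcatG

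At 0 h the levels fell into 5 steps. GTF2H2, ERCC3 and ERCC1 were highest, at 39.0 ± 7.49, 35.3 ± 2.06 and 35.1 ± 1.58 FPKM (SD, n = 3 each), and their libraries overlapped. XPC (16.7 ± 2.53 FPKM) and ERCC2 (16.0 ± 1.26 FPKM) came next and also overlapped. ERCC8 (11.0 ± 1.11 FPKM) lay below both and above XPA (7.16 ± 1.06 FPKM) and ERCC5 (6.52 ± 0.241 FPKM), which overlapped each other. ERCC4 (3.72 ± 0.887 FPKM) and ERCC6 (2.84 ± 0.473 FPKM) were lowest and could not be separated. At 24 h ERCC1 stood alone at the top and GTF2H2 had moved from position 1 to position 6. The plot of levels by library gives every value.

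**Figure D1:**
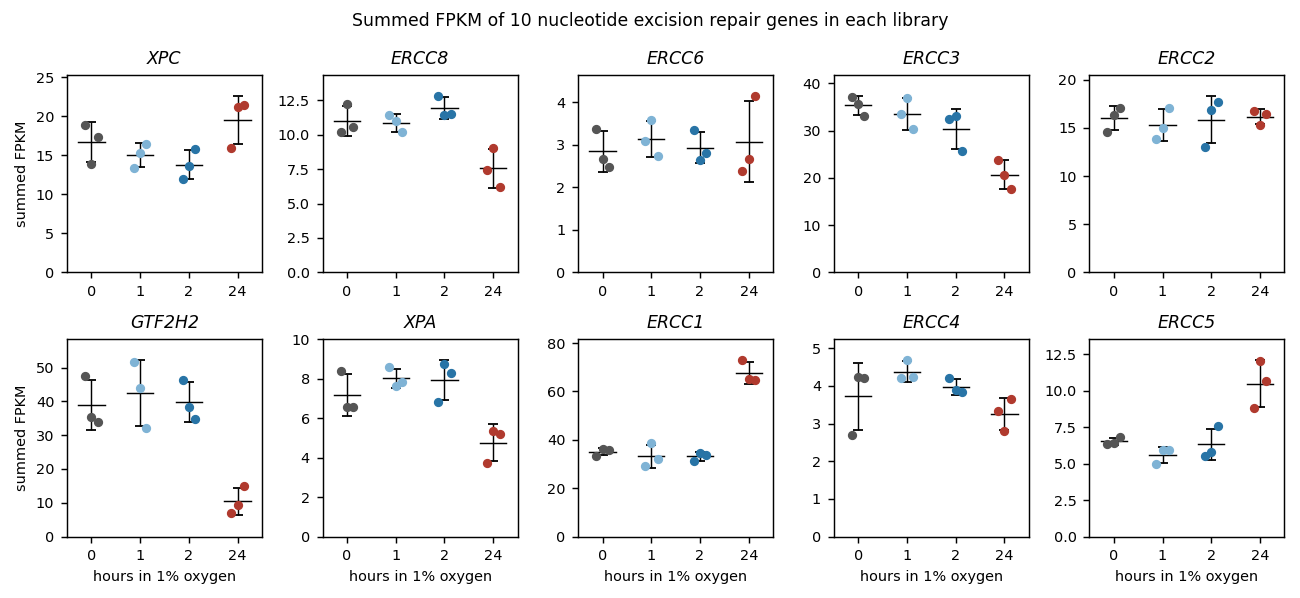
Summed FPKM of the 10 NER genes (y axes, linear, from 0) against hours in 1% oxygen (x axes, categories); points are single libraries, the bar is the mean and the whisker the SD of 3 replicates. The 24 h libraries of ERCC1 and ERCC5 lie above every earlier library, and those of ERCC3, ERCC8, XPA and GTF2H2 lie below every earlier library.

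Time points were compared by limma fits to log2(FPKM + 0.5) of all 16680 gene names, a scale that understates changes of low genes. A gene was called changed where it moved by more than 1 on the log2 scale, in either direction, with an adjusted p under 0.01. It is said to have risen or fallen where the adjusted p alone was under 0.05. At 24 h against 0 h the fall of GTF2H2 met the first rule and no member was called higher, where 9.51% of all genes tested were called lower and 8.76% higher. By adjusted p alone 2 members rose, ERCC1 and ERCC5, against 25.0% of all genes, and 4 fell, ERCC3, ERCC8, XPA and GTF2H2, against 30.3%. The shares among the 10 members, 2 and 4 of 10, were thus near those of the whole transcriptome. When FPKM was rescaled to TPM (the same total in every library), the median of all genes moved to -0.78, 390 genes of the 14531 then tested were higher and 6477 lower, where 4170 and 5058 of 16680 had been, and 0 members were higher and 4 lower. The same 6 members had 24 h libraries that did not overlap those of 0 h, as did 60.4% of all genes. The median log2 fold change was -0.07 for the members and -0.05 for all genes.

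In early hypoxia no member passed the test. At 1 h the log2 fold changes ran from -0.20 (ERCC5) to 0.23 (ERCC4), and at 2 h from -0.26 (XPC) to 0.14 (XPA). No member had an unadjusted p under 0.05 at 1 h or at 2 h, and the lowest limma adjusted p was 0.44 (at 2 h). Few genes passed the test at these times in the transcriptome as a whole, 0.00600% at 1 h and 0.312% at 2 h by adjusted p under 0.05. The 95% intervals of the members at 1 h and 2 h reached from -0.60 (XPC, 2 h) to 0.65 (GTF2H2, 1 h). The narrowest intervals were those of ERCC1, from -0.32 to 0.15 at both times. With TPM the median of all genes at 2 h moved to -0.94, 61.4% of all genes were lower by adjusted p under 0.05, and 8 members were among them. At 1 h 0 members were lower. With the replicate number as a block, 196 of all genes passed at 2 h in place of 52, and 0 members did (lowest limma adjusted p = 0.30).

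**Figure D2:**
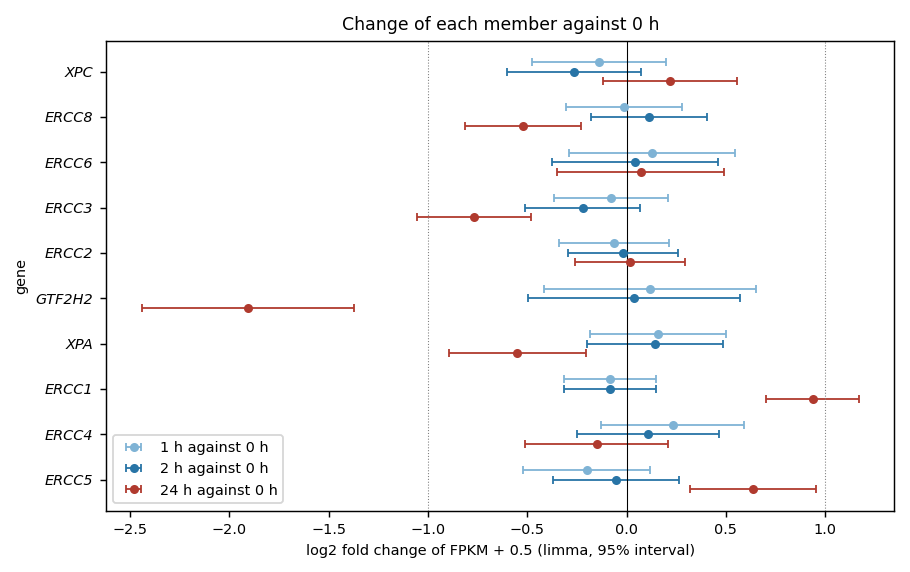
Log2 fold change of FPKM + 0.5 against 0 h (x axis) of each NER gene (y axis) at 1, 2 and 24 h, with limma 95% intervals as whiskers and dotted lines at -1 and 1. At 1 h and 2 h all intervals include 0, and at 24 h only that of GTF2H2 lies wholly below -1.

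Of the sensors of damage XPC and ERCC6 did not pass the test at 24 h and ERCC8 fell. XPC, which starts global genome repair, had 18.9, 13.9 and 17.4 FPKM at 0 h, 13.4, 15.3 and 16.5 after 1 h, 12.01, 13.6 and 15.8 after 2 h and 16.0, 21.2 and 21.5 after 24 h. The 24 h libraries reached higher but overlapped those of 0 h. Against 0 h it differed by a log2 fold change of 0.22 (standard error, SE, 0.15; limma adjusted p = 0.25), with a 95% interval from -0.12 to 0.55. Against 2 h it was 0.48 (SE 0.15, limma adjusted p = 0.021). The coding transcript XPC-201 made up 79.2% ± 15.1 of the gene at 0 h and 90.1% ± 10.0 at 24 h. The retained-intron transcript XPC-203 held 12.5% and 8.26%.

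ERCC6, the DNA-dependent ATPase that recognises a stalled polymerase, was measured at 3.38, 2.66 and 2.48 FPKM at 0 h and 2.37, 2.67 and 4.15 at 24 h. The groups overlapped and the log2 fold change was 0.07 (SE 0.19, limma adjusted p = 0.78). The interval, from -0.35 to 0.49, leaves room for changes of that size. The full-length coding transcript ERCC6-201 held 41.3% at 0 h and 51.6% at 24 h, and its FPKM was 0.938 and 1.46. The reference transcript ENST00000542458 held 31.2% and 26.1%, and assembled isoforms of 4364 and 1037 bases held 11.4% and 16.1% at 0 h and 16.8% and 5.47% at 24 h, with no share past the test. ERCC6 shares its locus with the fusion gene ERCC6-PGBD3, which did not exceed 1.16 FPKM in any library and had a log2 fold change of -0.46 (limma adjusted p = 0.16).

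ERCC8, the WD-repeat protein of the CSA ubiquitin ligase, fell. It had 10.2, 12.3 and 10.5 FPKM at 0 h, 11.5, 11.0 and 10.2 after 1 h, 12.8, 11.4 and 11.5 after 2 h and 7.42, 9.08 and 6.22 after 24 h. All 24 h libraries were lower than all earlier libraries. Its log2 fold change was -0.52 (SE 0.13, limma adjusted p = 0.0057). The coding transcript ERCC8-201 (2017 bases) went from 6.42 ± 1.26 to 3.28 ± 0.337 FPKM, while ERCC8-208, annotated as a target of nonsense-mediated decay, was at 1.50 ± 0.619 and 1.47 ± 0.377 FPKM. The reference transcript ENST00000543101 held 11.7% and 10.5%. The share of ERCC8-208 was 14.2% and 22.0%, and no ERCC8 transcript changed its share by the test (lowest adjusted p = 0.19).

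Within TFIIH the 3 members differed. ERCC3, the helicase also needed to start transcription, had 37.2, 35.7 and 33.1 FPKM at 0 h, 33.4, 36.9 and 30.3 after 1 h, 32.4, 33.1 and 25.6 after 2 h and 23.8, 20.6 and 17.7 after 24 h. Its 24 h libraries were below every earlier one. It had a log2 fold change of -0.77 (SE 0.13, limma adjusted p = 0.00038), a ratio of mean FPKM of 0.585.

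ERCC2, the helicase that scans the opened strand, had 14.6, 16.3 and 17.1 FPKM at 0 h and 16.8, 15.3 and 16.4 at 24 h. The groups overlapped fully, with a log2 fold change of 0.02 (SE 0.13, limma adjusted p = 0.92, 95% interval from -0.26 to 0.29).

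GTF2H2 was the member that changed most. It had 47.6, 35.4 and 33.9 FPKM at 0 h, 51.5, 43.9 and 32.3 after 1 h, 46.3, 38.4 and 34.8 after 2 h and 7.05, 9.20 and 14.9 after 24 h. The highest 24 h library was below the lowest earlier one. On the log2 scale the change was -1.91 (SE 0.24, limma adjusted p = 4.3e-05), and the ratio of mean FPKM was 0.266. With TPM it was -2.65, and summed by Cufflinks locus -1.29. Within 24 h the 3 replicates spread further than those of any other member, relative to their mean.

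The level of GTF2H2 rests on how reads were divided among copies of the gene. GTF2H2 lies at chr5:70330843-70363516, the coding copy GTF2H2C at chr5:68856018-68891048, and GTF2H2B, annotated as a pseudogene, at chr5:69711179-69743353. The coding sequences of GTF2H2-202 and GTF2H2C-201 are both 1185 bases and differ at 4 of them, given as the GTF2H2 base, its position and the GTF2H2C base: A397G, A453G, G706C and G912A. Of the 218 intron bases shown for GTF2H2-211, 217 are the same in GTF2H2C. Both copies fell as well. GTF2H2C had 122, 103 and 96.1 FPKM at 0 h and 15.9, 21.2 and 18.1 at 24 h, a log2 fold change of -2.51 (SE 0.17, limma adjusted p = 4.6e-07). GTF2H2B had 31.9, 26.4 and 35.9 FPKM at 0 h and 6.40, 7.06 and 6.81 at 24 h, a log2 fold change of -2.12 (SE 0.21, limma adjusted p = 6.2e-06). Summed over the 3 genes the level went from 177 ± 20.8 to 35.5 ± 5.46 FPKM (SD, n = 3 each), a ratio of 0.201; this sum was formed after the values were seen and was not tested. The share of GTF2H2 in that sum was 21.9% ± 1.62 at 0 h, 23.4% ± 0.600 after 1 h, 23.2% ± 0.648 after 2 h and 28.7% ± 7.56 after 24 h. In 24 h replicate 3 it was 37.4%, against 24.0% and 24.6% in the other replicates. A further set of 12 transcript models named GTF2H2 on an alternative scaffold of chromosome 5 was listed at 0 FPKM in every library, and GTF2H2D did not pass the filter. GUSBP9, which shares a locus with GTF2H2, had a log2 fold change of 0.55 (limma adjusted p = 0.089).

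**Figure D3:**
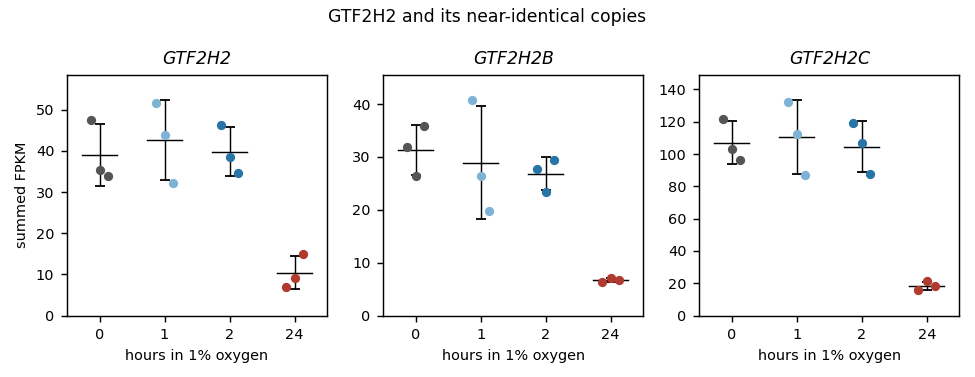
Summed FPKM (y axes, linear, from 0; the scales differ) of GTF2H2 and its near-identical copies GTF2H2B and GTF2H2C against hours in 1% oxygen; points are libraries, bars means and whiskers SDs of 3 replicates. In each gene the 24 h libraries lie below all earlier ones, and GTF2H2C is the most abundant.

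Among the 14430 other gene names with a mean of at least 1 FPKM, those whose pattern over the 12 libraries was most like that of GTF2H2 were UTP20 (Pearson's r = 0.996), GAR1 (0.995), RBM26 (0.994), AFG3L2 (0.994) and SERBP1 (0.993), on the log2(FPKM + 0.5) scale. The points share their libraries and time points, so the values are a description only. The sizes of their changes were unequal, from 10.04 to 2.33 FPKM for UTP20 and from 304 to 214 FPKM for SERBP1.

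XPA, the zinc-finger protein that checks the lesion, fell. It had 8.38, 6.56 and 6.54 FPKM at 0 h, 8.56, 7.63 and 7.85 after 1 h, 6.80, 8.73 and 8.29 after 2 h and 3.70, 5.37 and 5.21 after 24 h. The 24 h libraries were below all earlier ones. It changed by -0.55 on the log2 scale (SE 0.16, limma adjusted p = 0.011), and without 0 h replicate 1, the highest of its group, the adjusted p was 0.052. XPA-201 carried 95.1% of the gene at 0 h and 92.3% at 24 h.

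Of the nucleases ERCC1 and ERCC5 rose and ERCC4 did not pass the test. ERCC1, the subunit that binds DNA and XPA, had 33.3, 36.3 and 35.7 FPKM at 0 h, 29.3, 38.5 and 31.9 after 1 h, 31.1, 34.6 and 33.6 after 2 h and 73.0, 65.2 and 64.8 after 24 h. The 24 h libraries lay far above all others. The log2 fold change was 0.94 (SE 0.11, limma adjusted p = 1.8e-05), just inside the fold limit of the first rule, and the ratio of mean FPKM was 1.93. With TPM the log2 fold change of ERCC1 was 0.07 (limma adjusted p = 0.90), or 0.85 above the median of all genes. ERCC1 had an adjusted p under 0.05 in 17 of 18 alternatives, all but TPM. ERCC4, which holds the catalytic site, had 2.70, 4.25 and 4.22 FPKM at 0 h and 3.33, 2.80 and 3.64 at 24 h. These groups overlapped, with a log2 fold change of -0.15 (SE 0.16, limma adjusted p = 0.46, 95% interval from -0.51 to 0.21). The mean level of ERCC1 exceeded that of ERCC4 at both times.

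ERCC1-201 was the main transcript of ERCC1 at both times. It had 17.5, 19.4 and 18.7 FPKM at 0 h and 36.2, 38.2 and 37.0 at 24 h, and its share was 54.3% ± 1.03 and 56.5% ± 5.03. ERCC1-203, which lacks 72 coding bases of ERCC1-202, held 14.2% and 9.34%. The short coding transcript ERCC1-216 held 10.6% and 10.5%, with 3.62 and 7.13 FPKM. ERCC1-202, whose coding end differs from the one printed above, held 2.32% and 3.63%. No ERCC1 transcript changed its share by the test (lowest adjusted p = 0.11).

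ERCC1 and ERCC2 are neighbours on chromosome 19 (chr19:45910592-45982086 and chr19:45853095-45874176, both on the minus strand). PPP1R13L, between them on the same strand and in the locus of ERCC1, had 13.1 FPKM at 0 h and 47.8 at 24 h, a log2 fold change of 1.83 (limma adjusted p = 6.2e-08). CD3EAP (POLR1G in the current annotation), which overlaps the 3′ end of ERCC1 on the opposite strand, fell from 45.4 to 13.0 FPKM, a log2 fold change of -1.76 (limma adjusted p = 4.7e-06). KLC3, in the locus of ERCC2, had a log2 fold change of 1.23 (limma adjusted p = 9.3e-05). With TPM neither PPP1R13L (0.95, limma adjusted p = 0.052) nor KLC3 (0.39, limma adjusted p = 0.41) passed. The libraries keep strand, so reads of ERCC1 and CD3EAP can be told apart.

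The core hypoxia response element contains ACGTG or GCGTG. In the promoter table of RefSeq (GRCh38.p14, 250 bases before to 50 after each start), 9 of the 13 promoters of the 10 members held such a core on either strand (matches may overlap), against 48.4% of 35116 promoters. The promoter shown is that of the ERCC1 start nearest the beginning of ERCC1-201 (chr19:45423479-45423778 of GRCh38.p14, minus strand), because ERCC1 rose, with its 2 cores in capitals. GTF2H2, which fell, held 2 as well. A match is a description of the letters and shows no binding.
ERCC1 promoter: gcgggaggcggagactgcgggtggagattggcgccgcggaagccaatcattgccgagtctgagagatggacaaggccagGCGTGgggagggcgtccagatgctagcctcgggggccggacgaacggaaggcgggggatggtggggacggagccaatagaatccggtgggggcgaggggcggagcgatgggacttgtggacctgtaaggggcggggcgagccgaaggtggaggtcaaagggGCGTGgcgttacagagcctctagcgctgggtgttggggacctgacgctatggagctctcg

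ERCC5, the nuclease of the 3′ cut, rose. It had 6.37, 6.39 and 6.80 FPKM at 0 h, 4.99, 5.92 and 5.96 after 1 h, 5.56, 5.83 and 7.57 after 2 h and 8.80, 12.03 and 10.7 after 24 h. All 24 h libraries were above all earlier ones. The log2 fold change was 0.64 (SE 0.15, limma adjusted p = 0.0028), with a 95% interval from 0.32 to 0.96. With TPM the direction of ERCC5 turned, to -0.17 (limma adjusted p = 0.73), which was 0.62 above the median of all genes. Its adjusted p was under 0.05 in 17 of 18 alternatives, all but TPM.

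Much of the ERCC5 signal came from a short model with no defined coding sequence. ERCC5-204, of 710 bases, held 51.4% ± 10.5 at 0 h and 55.3% ± 3.25 at 24 h. The reference transcript ENST00000355739, of 5076 bases and with no type in the annotation used, had 1.29, 0.670 and 0.924 FPKM at 0 h and 1.99, 2.85 and 2.85 at 24 h. Its share was 15.2% and 28.5%, a change of 0.84 in the log2 ratio (limma adjusted p = 0.24). The retained-intron transcript ERCC5-202 held 22.9% and 11.6% (limma adjusted p = 0.15), and an assembled isoform of 1522 bases held 10.5% and 4.67%. ERCC5 lies in a readthrough gene, BIVM-ERCC5, which had 4.68 FPKM at 0 h and 6.57 at 24 h (log2 fold change 0.46, limma adjusted p = 0.054). BIVM itself fell (log2 fold change -0.92, limma adjusted p = 0.025). ERCC5 and BIVM-ERCC5 together had 11.2 ± 1.22 FPKM at 0 h and 17.1 ± 2.11 at 24 h, a sum formed after the values were seen.

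Relative to 2 h, which shares the 24 h libraries with the contrast above, ERCC1 was called higher and GTF2H2 lower, where 7.44% of all genes were called higher and 7.28% lower. By adjusted p alone ERCC1, ERCC5 and XPC were higher at 24 h than at 2 h, against 23.2% of all genes, and ERCC3, ERCC8, XPA and GTF2H2 were lower, against 27.4%. With TPM only GTF2H2 of these passed, and ERCC1, ERCC5, XPC, ERCC3, ERCC8 and XPA had limma adjusted p values of 0.073, 0.21, 0.39, 0.75, 0.66 and 0.58. The log2 difference of ERCC1 with TPM was larger than without it and past the fold limit, so only its adjusted p missed the first rule. Without TPM the log2 difference was 1.02 for ERCC1 (SE 0.11, limma adjusted p = 1.2e-05) and -1.94 for GTF2H2 (SE 0.24, limma adjusted p = 4.4e-05). Without 2 h replicate 1 the difference of ERCC1 was 0.98 and without 24 h replicate 1 it was 0.96, both below the fold limit.

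Transcript usage was tested on the log2 ratio of a transcript to the rest of its gene, each with 0.5 FPKM added. At 24 h 3 of the 10 members, ERCC2, ERCC3 and GTF2H2, had at least 1 transcript with a changed share (limma adjusted p under 0.05), against 34.5% of the 10680 genes with several transcripts. With limma's diffSplice, a test per gene, ERCC3 passed and ERCC2 and GTF2H2 did not. No member transcript passed at 1 h or 2 h, when 2 and 1 of 57084 transcripts did. The plot of transcript shares shows the main cases.

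**Figure D4:**
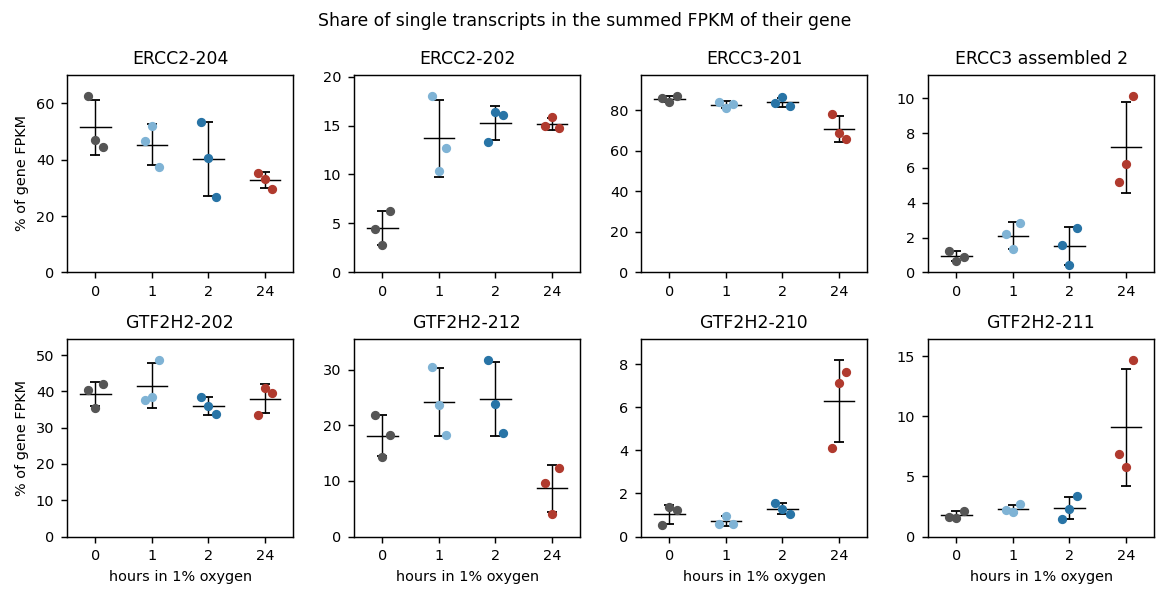
Share (y axes, percent of the summed FPKM of the gene, linear, from 0; the scales differ) of 8 transcripts of ERCC2, ERCC3 and GTF2H2 against hours in 1% oxygen; points are libraries, bars means and whiskers SDs of 3 replicates. ERCC2-202 is higher in every hypoxic library than at 0 h, from 1 h onwards, while at 24 h ERCC3-201 is lower and GTF2H2-210 and GTF2H2-211 are higher than at any earlier time.

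In ERCC2 isoform use changed while the level of the gene did not pass the test. The retained-intron transcript ERCC2-202, whose opening is printed above, held 4.42, 2.82 and 6.31% of the gene at 0 h, 18.0, 10.4 and 12.7% after 1 h, 13.3, 16.3 and 16.1% after 2 h and 15.0, 15.8 and 14.7% after 24 h. Every hypoxic library was above every 0 h library. ERCC2-202 starts inside an intron of ERCC2-204, at a start site of its own, and holds 289 of the 2100 bases of that intron. The intron printed above is thus kept only in part. In FPKM it went from 0.666 ± 0.325 at 0 h to 1.95 ± 0.425 at 1 h, 2.32 ± 0.660 at 2 h and 2.29 ± 0.0928 at 24 h. The log2 ratio changed by 1.39 at 24 h (SE 0.27, limma adjusted p = 0.0091). The coding transcript ERCC2-204 had 7.34 ± 0.464 FPKM at 0 h and 4.96 ± 0.539 at 24 h, and its share was 51.5% and 32.7% (limma adjusted p = 0.12). The coding transcripts ERCC2-203 and ERCC2-206 held 19.7% and 7.68% at 0 h and 20.8% and 18.9% at 24 h, with neither past the test. An assembled isoform of 3702 bases, nearest to ERCC2-204, went from 7.21% to 1.02% (limma adjusted p = 0.033), a call kept in 7 of 12 alternatives (highest adjusted p = 0.12).

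In ERCC3 the main coding transcript lost share as the gene fell. ERCC3-201 held 86.0, 84.0 and 86.9% at 0 h and 78.2, 68.6 and 65.9% at 24 h, without overlap. Its FPKM went from 29.5 ± 1.30 to 14.1 ± 3.87, and the log2 ratio changed by -1.23 (SE 0.25, limma adjusted p = 0.012). Of 3 assembled isoforms nearest to the reference transcript ENST00000493187, those of 5492 and 5048 bases gained share, and that of 4658 bases held 0.574% and 0.4996% (limma adjusted p = 0.24). The shorter held 1.24, 0.659 and 0.909% at 0 h and 5.20, 6.22 and 10.2% at 24 h (log2 ratio change 2.07, limma adjusted p = 0.0068). The longer held 0.350% and 5.72% (log2 ratio change 2.17, limma adjusted p = 0.0094). In a fit to the 6 libraries of 0 h and 24 h alone ERCC3-201 and the longer isoform had limma adjusted p values of 0.068 and 0.050, both missing the threshold. Their log2 ratio changes were the same as in the main fit. With class = transcripts alone the change of ERCC3-201 was -0.62 (limma adjusted p = 0.15). The reference ENST00000493187 has no type in the annotation used, so the assembled isoforms nearest to it have none.

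In GTF2H2 the share of the coding transcript did not pass the test while the gene fell. GTF2H2-202 held 39.3% ± 3.40 at 0 h and 38.0% ± 3.96 at 24 h (limma adjusted p = 0.98), and went from 15.0 ± 3.45 to 3.54 ± 1.35 FPKM. The retained-intron transcripts GTF2H2-210, with an intron of 648 bases, and GTF2H2-211, with the intron shown above, held more of the gene at 24 h. GTF2H2-210 had 0.538, 1.36 and 1.23% at 0 h and 4.09, 7.12 and 7.64% at 24 h (log2 ratio change 2.40, SE 0.28, limma adjusted p = 0.00094). GTF2H2-211 had 1.66, 1.55 and 2.16% at 0 h and 6.84, 5.79 and 14.7% at 24 h (log2 ratio change 2.28, SE 0.32, limma adjusted p = 0.0023). Their own abundance was low at both times, 0.377 ± 0.115 and 0.609 ± 0.334 FPKM for GTF2H2-210 and 0.675 ± 0.121 and 0.910 ± 0.750 FPKM for GTF2H2-211, and the groups overlapped.

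Another retained-intron transcript, GTF2H2-212, was the most abundant of its kind at 0 h and held 18.2% at 0 h and 8.66% at 24 h (limma adjusted p = 0.26). GTF2H2-206, a target of nonsense-mediated decay, held 13.2, 17.7 and 0% at 0 h and 21.9, 0.0069 and 0% at 24 h, so that its 24 h mean rests on replicate 1. An assembled isoform of 4474 bases held 6.63% and 16.1% (limma adjusted p = 0.082). The other transcripts past the test averaged below the pseudocount of 0.5 FPKM at 24 h. They were GTF2H2-209 (1.62% and 2.26%, limma adjusted p = 0.0066), a model of 1953 bases matched to ENST00000425596 (1.59% and 3.63%, limma adjusted p = 0.039) and an assembled isoform of 4588 bases. For the last the log2 ratio rose by 0.94 (limma adjusted p = 0.033) although the share was 2.66% at 0 h and 2.18% at 24 h, and with a pseudocount of 0.1 FPKM it did not pass (limma adjusted p = 0.98). Its share was 7.14% at 1 h and 7.05% at 2 h, all libraries above those of 0 h (adjusted p = 0.66 and 0.36, unadjusted p = 0.00070 and 0.00079, limma). These calls were kept in 11, 5 and 4 of 12 alternatives, with GTF2H2-209 at 0.17 with a pseudocount of 0.1 FPKM and the model of ENST00000425596 at up to 0.27. A further model of that reference, of 1956 bases, held 2.96% and 5.10% (limma adjusted p = 0.13).

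The transcripts of ERCC4 were too low for firm shares. ERCC4-201 held 44.5% ± 14.9 at 0 h and 50.8% ± 14.9 at 24 h, and assembled isoforms of 1224 and 3067 bases held 15.0% and 25.6% at 0 h and 28.3% and 20.8% at 24 h. ERCC4-208, a retained-intron transcript, had 0.554 ± 0.516 FPKM at 0 h and was listed at 0 in the 24 h libraries and in 0 h replicate 1.

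The study asked about switching between coding and noncoding isoforms. Its discussion names ERCC2 and GTF2H2 among the NER genes with such changes, found with other methods. Here the noncoding transcripts of a gene (retained intron, nonsense-mediated decay, processed and other noncoding types) were set against its coding ones. Assembled isoforms were counted by the type of their nearest reference transcript. Of the members, 8 had transcripts of both kinds, while ERCC5 and ERCC6 did not. At 24 h the ratio of ERCC2 was higher and that of no member lower (limma adjusted p under 0.05), against 8.70% of the 5997 such genes that were higher and 4.20% that were lower. The mean noncoding share was higher at 24 h in 6 of the 8 members and lower in 2, ERCC4 and XPC. The median change was 1.82 percentage points for the 8 members and 0.670 for all such genes.

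The noncoding share of ERCC2 was 4.87, 2.82 and 7.07% at 0 h, 19.5, 11.2 and 12.7% after 1 h, 15.0, 23.9 and 17.5% after 2 h and 18.4, 21.0 and 15.6% after 24 h. No hypoxic library overlapped those of 0 h. The log2 ratio changed by 1.58 at 24 h (SE 0.31, limma adjusted p = 0.0088), by 1.63 at 2 h (adjusted p = 0.33 and unadjusted p = 0.00026, limma) and by 1.22 at 1 h (adjusted p = 0.54 and unadjusted p = 0.0022, limma). No gene of the 5997 passed the adjusted test at 1 h or 2 h, where 332 and 493 had an unadjusted p under 0.05. Between 2 h and 24 h the ratio of ERCC2 differed by -0.04 (limma adjusted p = 0.95).

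The noncoding share of ERCC3 was 8.21, 10.4 and 9.54% at 0 h and 12.1, 19.3 and 15.2% at 24 h. The groups did not overlap, but the change of 0.83 in the log2 ratio missed the threshold (SE 0.27, limma adjusted p = 0.067), and without 24 h replicate 1 the adjusted p was 0.042. ERCC8 had 17.5% ± 7.57 at 0 h and 26.0% ± 4.78 at 24 h (limma adjusted p = 0.23), and GTF2H2 35.7% ± 4.91 and 36.6% ± 13.5 (limma adjusted p = 0.91). XPA had 4.92% and 7.67%, with overlapping libraries. XPC had 37.4, 8.05 and 16.8% at 0 h and 0, 20.1 and 9.59% at 24 h, and these overlapped. ERCC1 was above 0 in 1 library at 0 h (0.416%) and in 1 at 24 h (2.47%). In ERCC1 the log2 ratio had the opposite sign to the mean share, -0.38 (limma adjusted p = 0.73). ERCC4 had 14.8% at 0 h and was listed at 0 at 24 h (limma adjusted p = 0.13, and 0.035 without 0 h replicate 1).

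Most of the rest of the pathway fell. Of 41 other NER genes, the copies of GTF2H2 left out, by adjusted p under 0.05 at 24 h 2 rose, 28 fell and 11 did not pass, against 25.0% and 30.3% of all genes. With TPM 1 rose and 31 fell, against 2.68% and 44.6%. Their median log2 fold change was -0.53, against -0.05 for all genes. The plot of gene lists at 24 h shows each gene.

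**Figure D5:**
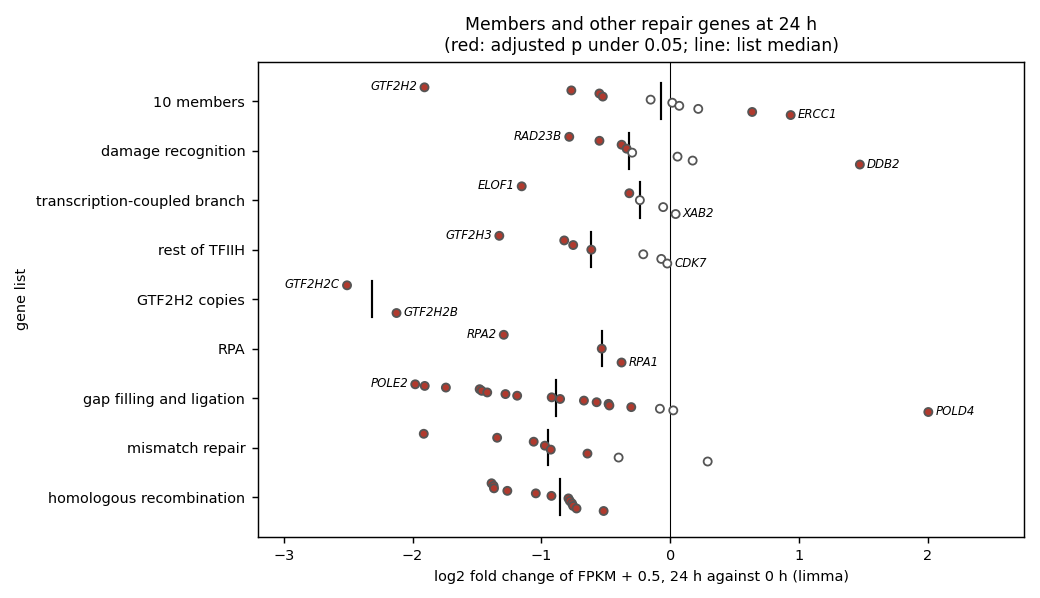
Log2 fold change of FPKM + 0.5 at 24 h against 0 h (x axis) of the 10 members, of other NER genes by role, and of mismatch repair and homologous recombination genes (y axis, 1 row a list); each circle is a gene, red at a limma adjusted p under 0.05, with a line at the list median and the lowest and highest gene named in the NER lists. The members span 0, from GTF2H2 to ERCC1, while the lists of gap filling, mismatch repair and homologous recombination lie mostly below 0.

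Among 8 partners of XPC in damage recognition 1 rose and 4 fell. DDB2, which binds ultraviolet lesions and hands them to XPC, rose from 16.8 to 48.7 FPKM (log2 fold change 1.47, limma adjusted p = 3.7e-05). With TPM it was at 0.61 (limma adjusted p = 0.23). RAD23B, which stabilises XPC, fell by 0.78 on the log2 scale, and CUL4A, the ligase scaffold of DDB2, fell by 0.55. Of 5 partners of ERCC6 and ERCC8, 2 fell: ELOF1, an elongation factor (log2 fold change -1.15, limma adjusted p = 9.9e-05), and HMGN1, a chromatin protein (log2 fold change -0.32). UVSSA, which brings TFIIH to the stalled polymerase, had -0.24 (limma adjusted p = 0.18). Of the 7 further TFIIH subunits 4 fell, among them GTF2H3 (log2 fold change -1.33, limma adjusted p = 2.7e-05), GTF2H4 (-0.82) and the cyclin CCNH (-0.75), as did ERCC3 and GTF2H2 among the members. The kinase CDK7 had -0.02 (limma adjusted p = 0.91).

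All 3 subunits of RPA, which covers the single strand, fell, RPA2 most (log2 fold change -1.29) and RPA3 and RPA1 by 0.53 and 0.38. Of 18 gap filling and ligation genes 15 fell and 1 rose. The sliding clamp PCNA fell from 324 to 118 FPKM (log2 fold change -1.46), and the clamp loader subunits RFC2, RFC3, RFC4 and RFC5 had log2 fold changes of -1.48, -1.74, -1.19 and -1.28. The polymerase subunits POLD3, POLE2 and POLE3 had -1.42, -1.98 and -1.91, while the small subunit POLD4 rose from 7.79 to 32.3 FPKM (log2 fold change 2.00). Many of these genes also serve DNA replication.

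Other repair pathways give a measure for the members. In mismatch repair 6 of 8 genes fell and none rose, with a median of -0.95 on the log2 scale and called falls that included MSH6 (-1.06) and EXO1 (-1.91). In homologous recombination all 12 fell, with a median of -0.86 and called falls that included BRCA1 (-1.04), PALB2 (-1.26) and BARD1 (-1.37). The 10 NER members, at 4 lower and 2 higher with a median of -0.07, had a median nearer 0 than either list. The difference between the lists was not tested.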

How the data were processed

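Poly(A) RNA of HCT116 cells was sequenced at 0, 1, 2 and 24 h of 1% oxygen, 3 libraries each, grouped by the sample labels. According to their methods the authors aligned strand-specific read pairs to hg19 with MapSplice, ran Cufflinks on every library, and compared the merged transcripts with Ensembl. They deposited FPKM per transcript and library, unfiltered, and no normalisation between libraries is given in the sources used here. Read counts were not used here, so a count test and depth-based intervals were not possible.

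FPKM of transcripts of class = or j was summed per gene name. Gene names and transcripts with FPKM above 0.5 in at least 3 libraries were tested over all 12 libraries with limma 3.58.1 (lmFit, eBayes with trend, R 4.3.3) on log2(FPKM + 0.5), two-sided, with Benjamini-Hochberg adjustment over all features. Spread is the SD of 3 replicates, whose separate cultures are stated only as biological replicates. Transcript types and structures came from GENCODE release 44 on GRCh37 (87.9% of transcripts had a type), and promoters from RefSeq. An assembled isoform took the type of its nearest reference transcript, and its own coding status was not assessed. Deviations from the group means correlated over 0.1 in each of the 3 same-numbered pairs of 0 h and 2 h (r from 0.13 to 0.36) and of 1 h and 2 h (0.12 to 0.43), so the numbers pair these libraries, in 2 of 3 pairs of 0 h and 1 h (lowest 0.095), and in 1 of 3 pairs of 0 h and 24 h. The block was run as an alternative. The steps were also run on simulated data with independent noise and large added changes. Small changes and low transcripts were not covered by those runs. Tables, sequences and figures used Python 3.11.15, numpy 2.4.6, pandas 2.3.3, Biopython 1.88 and matplotlib 3.10.9.

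All members are named, with their transcripts of at least 10% mean share at 0 h or 24 h or with a changed share. Of each other list the called genes and the 3 with the largest change are named, except for some that are not reported here, as are genes in the locus of a member and the 5 genes most like the member that changed most. The members and lists were chosen with earlier results of these data known. Alternatives covered the pseudocount, filters, scaling (median of ratios, TPM), summing by locus, transcript class, a replicate block, the libraries in the fit and leaving out each library. TPM at 1 h, at 2 h and for 24 h against 2 h was added after seeing the data. So were the counts by adjusted p alone with TPM at 24 h against 0 h.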

Additional observations from a re-analysis of the deposited data

Results flagged for a closer look

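The changes of 2 genes differed between 24 h and 2 h of hypoxia by more than 1 on the log2 scale with an adjusted p under 0.01, in a test of the difference itself (limma, 24 h against 2 h). The log2 difference was 1.02 for ERCC1, which was below 1 without 2 h replicate 1 (0.98) or 24 h replicate 1 (0.96), and -1.94 for GTF2H2. By adjusted p under 0.05 alone 5 further members differed, ERCC3 (-0.54), ERCC5 (0.69), ERCC8 (-0.64), XPA (-0.69) and XPC (0.48). Transcript ratios differed in the same test in ERCC5 (ENST00000355739, 1.60), ERCC3 (ERCC3-201, -1.04, and the assembled isoform of 5048 bases, 1.71) and GTF2H2 (GTF2H2-210, 2.23, GTF2H2-211, 2.07, GTF2H2-209, 1.30, and ENST00000425596, 2.34), all in log2 units with a limma adjusted p under 0.05. ENST00000355739 had only 0.643, 0.000583 and 0.525 FPKM at 2 h. Its limma adjusted p was 0.049 against 2 h and 0.24 against 0 h. ERCC2-202, whose share was higher in each hypoxic library than at 0 h, differed by -0.02 between 2 h and 24 h (limma adjusted p = 0.98). Groups of 3 libraries were not searched for single libraries that stand apart.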

How the results depend on the processing

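Counts of called members at 1 h and 2 h were 0 in the alternatives run, but by adjusted p under 0.05 with TPM, added after seeing the data, 8 members were lower at 2 h, as were 61.4% of all genes, whose median was -0.94. At 24 h the count of 1 called member, GTF2H2, became 6 with an adjusted p under 0.05 alone and 4 under TPM, and stayed 1 in the other alternatives. Against 2 h the count of 2 became 7 by adjusted p alone and 1 with TPM, and ran from 1 to 2 with a library left out. The member lost with TPM was ERCC1, on its limma adjusted p (0.073), while its log2 difference was larger than without TPM. Transcripts under 300 bases carried 57.0% to 87.6% of the FPKM of a library, and TPM moved the median log2 fold change of all genes at 24 h from -0.05 to -0.78. Under TPM ERCC2, ERCC5, ERCC6 and XPC turned to -0.79, -0.17, -0.56 and -0.60 and ERCC1 had 0.07, but relative to the median ERCC1 was at 0.85 and ERCC5 at 0.62. Values near 0 changed sign elsewhere: ERCC2 and ERCC6 under TPM of transcripts of at least 300 bases (-0.0746 and -0.00681), and ERCC6 summed by locus (-0.0535). Leaving out a library gave ERCC2 -0.0456 to 0.0637 and ERCC6 -0.137 to 0.210. The 3 members with a changed transcript share became 1 (ERCC3) with limma's diffSplice, 2 with class = only and 4 with a pseudocount of 1 or no filter on transcripts, and ran from 3 to 4 with a library left out. The single member with a changed noncoding share became 2 with a pseudocount of 1 and ran from 1 to 2 with a library left out. The noncoding ratio change of GTF2H2 turned to -0.14 with a minimum FPKM of 1, and with a library left out it ran from -0.224 to 0.522 and that of ERCC1 from -1.10 to 0.0251. The cause of these moves was not tested. The labels give the same replicate numbers at each time. Same-numbered libraries deviated together with a mean r of 0.154 over 18 pairs, against -0.0768 for different numbers, and 10 of 12 libraries were closest to their own number. The value for different numbers largely follows from the first, because deviations within a group sum to 0, and adds nothing on pairing. Pairs with 24 h libraries ran from -0.08 to 0.24. With a replicate block 1 member was called at 24 h, 2 against 2 h, 3 had a changed share and 1 a changed noncoding share, and 3112 of all genes were called against 3048 without it. The reads behind each value are unknown here.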
